A study of Mus musculus with 32 samples.

Results

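Loss of Msh3 in mice without the expanded Huntington allele was examined in the striata of 16 of the 32 mice in the series, 8 Msh3-/- and 8 wild-type (WT). The 16 were chosen by genotype label alone. Every mouse was 6 months old and on a C57BL/6J background, and each group held 4 males and 4 females. The mice were littermates from crosses of zQ175:Msh3+/- males with Msh3+/- females, and neither group carried the zQ175 allele, an expanded CAG repeat in mouse Htt. The Msh3 allele was made with Cas9 protein and a pair of guide RNAs that target exons 3 and 8, and it is constitutive, so that an effect in the adult striatum cannot be told apart from an earlier effect in development. The other 16 mice, 8 zQ175 and 8 zQ175:Msh3-/-, entered the same model and were used here as a scale and for a test of whether the Msh3 effect differed by Htt genotype.

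Msh3 encodes the subunit that defines MutSβ, the mismatch repair complex that binds small loops of unpaired DNA, including those formed by CAG repeats. MSH6 is a subunit of MutSα, which binds base mismatches. MutSβ drives the somatic expansion of CAG repeats in the striatum of mice with a Huntington allele, and the comparison of Msh3-/- with WT mice asks what the loss of Msh3 does to striatal RNA where no such allele is present. Most striatal neurons are spiny projection neurons of the direct pathway, which express the dopamine receptor Drd1, or of the indirect pathway, which express Drd2, and the rest are cholinergic and GABAergic interneurons.

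The deposited table gave whole-number counts for 54532 genes. Total counts ran from 12449707 to 22983977 per mouse over the 16 striata, with a median of 17957804.5 in WT and 17593185 in Msh3-/- mice. In the shallowest mouse 3 counts made up 2.41e-05% of the total, a floor that covers counting error only, as the reads carry no molecular identifiers. Between 6.00% and 7.68% of a library came from its 10 most abundant genes. Levels are given as CPM, counts per 1000000 after normalization of library sizes, or, where genes of unequal length are compared, as TPM, transcripts per 1000000. A gene was called when the adjusted p of edgeR's quasi-likelihood test was under 0.05 and the fold change was at least 1.2. Fold changes are Msh3-/- against WT on the log2 scale, with the standard error (SE) or the 95% confidence interval of the gene. Over all 16 mice the genotypes did not separate on the leading components. The first held 18.5% and the second 14.4% of the variance over 14895 genes. Within males, every Msh3-/- mouse lay above every WT mouse on the second component, at 10.4 to 18.5 against -2.19 to 8.03. Females of the 2 genotypes overlapped on it.

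Msh3 (ENSMUSG00000014850) was checked first. WT mice had 22.9 to 27.5 CPM, with a median of 23.7, and Msh3-/- mice had 10.4 to 13.6 CPM, with a median of 11.5. Every Msh3-/- mouse lay below every WT mouse. Msh3 fell by 1.06 on the log2 scale (SE 0.06, 95% interval -1.18 to -0.94, edgeR adjusted p = 2.56e-15), and 48.0% of the WT level remained, with an interval of 44.2% to 52.2%. An exact two-sided permutation test of 8 mice against 8 gave p = 0.0001554, the smallest that its 12870 arrangements allow. In the deposited TPM values the mean was 16.8 in WT and 9.96 in Msh3-/- mice, so that 59.5% remained on that scale, and the source of the gap between the tables was not tested. The fall was alike in males, at -1.04, and in females, at -1.07.

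The gene lies on the minus strand of chromosome 13 in GRCm38, from 92211872 to 92355003, and its coding transcript in GENCODE M21 has 24 exons and 3946 bases, of which 3285 are coding. The counts cover the whole gene. Exons 3 to 8 hold 958 of these bases, and the other 2988, 75.7% of the mRNA, lie outside them, so the remaining counts are not a measure of intact Msh3 mRNA. Reads over single exons were not analysed here. In the cortex of Msh3-/- mice the authors reported that Msh3 mRNA was ablated by quantitative PCR with primers in the deleted region. They did not detect MSH3 protein there by western blotting. The targeted exons are both coding and are shown because the guides were directed to them. Exon 3 spans 221 bases at chr13:92351231-92351451 and exon 8 spans 167 bases at chr13:92342246-92342412, each given 5′ to 3′ on the strand of the gene.
Msh3 exon 3: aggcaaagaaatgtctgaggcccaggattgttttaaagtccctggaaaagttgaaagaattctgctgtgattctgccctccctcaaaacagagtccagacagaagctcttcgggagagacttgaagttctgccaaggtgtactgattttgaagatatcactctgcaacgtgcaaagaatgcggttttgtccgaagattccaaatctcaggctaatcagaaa
Msh3 exon 8: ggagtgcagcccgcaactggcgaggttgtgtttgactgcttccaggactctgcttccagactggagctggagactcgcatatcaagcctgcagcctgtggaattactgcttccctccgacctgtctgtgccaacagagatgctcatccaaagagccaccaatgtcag

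**Figure D1:**
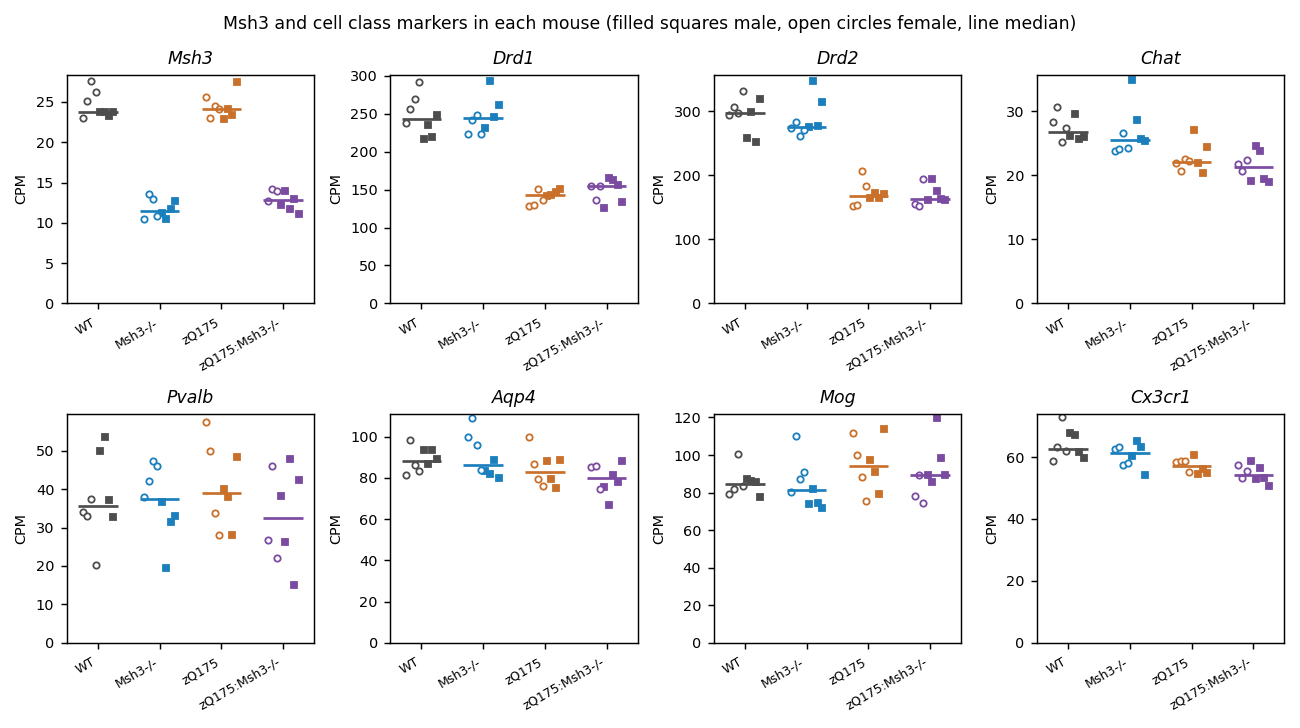
CPM of Msh3 and of 7 cell class markers in each mouse of the 4 genotypes, with 8 mice per genotype, filled squares for males, open circles for females and a line at the median. Msh3 lay at 10.4 to 13.6 CPM in Msh3-/- mice and at 22.9 to 27.5 in WT mice, while the WT and Msh3-/- values of the 7 markers overlapped.

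Genes beside Msh3 were near WT levels. Within 2 Mb on either side 24 other genes were tested, with log2 fold changes from -0.29 for AW495222 to 0.08 for Rasgrf2 and no edgeR adjusted p under 0.926. The intervals of 18 of the 24 neighbours lay inside a 1.2-fold change in either direction and those of 22 inside a 1.5-fold change. Rps23 (-0.05), Ssbp2 (0.02) and Serinc5 (0.02) were among the 18.

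Msh3 was the only gene called among the 16610 tested, 0.00602% of them. DESeq2 also called Msh3 alone. At an unadjusted p under 0.05 edgeR found 846 genes, 5.09% of those tested, and DESeq2 771. Of the 846, 403 (2.43%) were higher and 443 (2.67%) lower in Msh3-/- mice. The log2 fold changes were centred near 0 and narrow. Their 5th and 95th percentiles were -0.20 and 0.20, the median size was 0.05, the median SE was 0.07, and 8302 genes (50%) lay above 0. The biological coefficient of variation between mice of 1 genotype was 0.0985.

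Genes other than Msh3 did not pass the threshold and are given as values. Genes whose groups did not overlap numbered 4, or 0.0241% of the genes tested. They included Msh3, Dtx2, an E3 ubiquitin ligase gene of the Notch pathway, and Aox3, an aldehyde oxidase gene named here after its values were seen. Dtx2 had 6.72 to 8.02 CPM in WT and 8.10 to 10.5 CPM in Msh3-/- mice (log2 fold change 0.25, edgeR adjusted p = 0.63). Aox3 had 1.02 to 1.58 CPM in WT and 0.629 to 0.990 CPM in Msh3-/- mice (log2 fold change -0.63, edgeR adjusted p = 0.662). These gaps between the groups were small beside their ranges, and neither gene passed the test.

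Among the other genes with small unadjusted p, Vars (0.16), Ppp1r13l (0.48), Bcar1 (0.18) and Plekhf1 (0.68) had higher values in Msh3-/- mice. Vars encodes valyl-tRNA synthetase, Ppp1r13l an inhibitor of p53 and Bcar1 an adaptor of focal adhesions. On the lower side were Gm17494 (-0.32), Atp13a5 (-0.32), a transport ATPase gene, Tubd1 (-0.38), the delta-tubulin gene, Pcdh11x (-0.18), a protocadherin gene, Il1rapl2 (-0.40) and Gm21781 (-0.25). Their groups overlapped in every case and none passed the adjusted threshold. In zQ175:Msh3-/- against zQ175 mice the values of these 10 genes lay between -0.08 for Pcdh11x and 0.13 for Il1rapl2.

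The intervals state which effect sizes the 8 mice per group exclude. They come from the model without sex and bound the average over males and females. Changes of opposite sign in the sexes are therefore not excluded by them, and values within each sex are given below. For 10454 of the 16610 genes, 62.9%, the 95% interval lay inside a 1.2-fold change in either direction, and for 14431 genes, 86.9%, inside 1.5-fold. Changes of 2-fold or more were excluded for 97.1% of genes and of 3-fold or more for 99.3%. Scarce genes had wider intervals. Of the 10123 genes with a mean of at least 10 CPM, 92.0% lay inside 1.2-fold and 99.1% inside 1.5-fold. Of the 4772 genes from 1 to 10 CPM, 24.0% lay inside 1.2-fold, 84.5% inside 1.5-fold and 96.9% inside 2-fold. Among the 1715 genes under 1 CPM no interval lay inside 1.2-fold, 21.3% lay inside 1.5-fold and 82.6% inside 2-fold. These intervals hold for each gene on its own. With Bonferroni intervals that hold for all genes at once, 18.8% lay inside 1.2-fold, 62.4% inside 1.5-fold and 79.0% inside 2-fold, and among genes of at least 10 CPM 30.9%, 92.7% and 98.3%. A change of 1.2-fold in a well expressed gene was thus excluded gene by gene for most such genes but not for most of them at once.

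**Figure D2:**
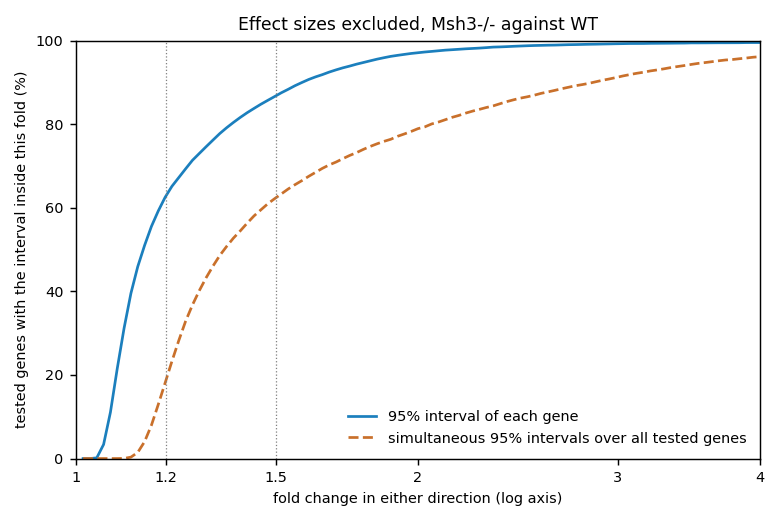
Percentage of the 16610 tested genes whose interval for Msh3-/- against WT lies inside a given fold change in either direction (log axis), for the 95% interval of each gene (solid) and for simultaneous intervals over all genes (dashed), with dotted lines at 1.2-fold and 1.5-fold. The solid line passes 62.9% at 1.2-fold and 86.9% at 1.5-fold, and the dashed line 18.8% and 62.4%.

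Markers of the striatal cell classes were near WT levels. Over 12 lists with 137 different genes, 136 were tested and edgeR called none, and DESeq2 likewise called none. In edgeR 8 of the 136 had an unadjusted p under 0.05, against 5.09% of all tested genes. The intervals of 104 of the 136, 76.5%, lay inside 1.2-fold and of 133, 97.8%, inside 1.5-fold, against 62.9% and 86.9% of all tested genes. The median log2 fold change over the 136 was -0.01. In bulk RNA fewer cells of a class and less RNA per cell cannot be told apart.

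Direct pathway markers were near WT levels. Drd1 had 216 to 292 CPM in WT and 223 to 293 CPM in Msh3-/- mice, medians 243 and 244, and the groups overlapped over nearly their whole range. Its log2 fold change was near 0 (95% interval -0.13 to 0.12). All 8 markers lay inside 1.5-fold and 6 inside 1.2-fold, with a median of 0.00. Tac1, the substance P precursor, was at 0.04, and Chrm4, a muscarinic receptor gene, was highest at 0.14 (edgeR adjusted p = 0.926).

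Indirect pathway markers had a median of -0.03 over 7 tested genes, or 0.01 in TPM values, of which 5 lay inside 1.2-fold and all inside 1.5-fold. The eighth gene of the list, Gpr52, was not tested under that symbol. Drd2 had 252 to 332 CPM in WT and 261 to 348 CPM in Msh3-/- mice, medians 298 and 276, at a log2 fold change of -0.03. Penk, the enkephalin precursor (-0.01), Adora2a, an adenosine receptor (-0.04), and Gpr6 (0.06) were alike. Per length Penk, at 1878 TPM in WT and 1881 TPM in Msh3-/- mice, exceeded Adora2a at 463 and 449 TPM, and this order was the same in both groups.

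All 24 genes shared by the spiny neurons had a log2 fold change below 0, but each by little. The lowest was -0.16 and the highest just under 0, with a median of -0.05, and 21 intervals lay inside 1.2-fold and 24 inside 1.5-fold. Ppp1r1b, which encodes DARPP-32, had a log2 fold change near 0 (95% interval -0.13 to 0.13), Adcy5, the main striatal adenylyl cyclase, -0.03, and Ryr1, a calcium release channel, -0.16. Genes of a list are not independent, and the same mice carry them all. The mean log2 CPM of the list, set relative to the WT mean, ran from -0.16 to 0.14 in WT and from -0.19 to 0.17 in Msh3-/- mice, with medians of 0.01 and -0.09. Over both sexes the groups overlapped, and the highest of all 16 mice was Msh3-/- M2, without which the median log2 fold change of the list was -0.09. Within females every Msh3-/- mouse lay below every WT mouse, at -0.19 to -0.05 against -0.02 to 0.14. Males of the 2 genotypes overlapped, and this difference between the sexes was not tested for the list. The 10 markers of striosome and matrix, the compartments of the striatum, had a median of -0.02, or 0.01 in TPM values, with 8 inside 1.2-fold and 9 inside 1.5-fold. Rasgrp1 was at -0.04 and Rasgrp2 at -0.03. The gene not inside 1.5-fold was Nr4a1, also an immediate early gene, at 0.48 with an interval from -0.23 to 1.19, or 0.17 without Msh3-/- M2.

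Interneuron markers were near WT levels with wider intervals. Chat, the enzyme of acetylcholine synthesis, had 25.2 to 30.7 CPM in WT and 23.8 to 34.9 CPM in Msh3-/- mice, medians 26.8 and 25.6, with Msh3-/- M1 the highest. The 9 cholinergic markers had a median of -0.01 with 8 below 0, and 6 lay inside 1.2-fold and 9 inside 1.5-fold. That median was -0.10 without Msh3-/- M1 and 0.05 without WT M2. The choline transporter Slc5a7 was at -0.08 and the vesicular glutamate transporter Slc17a8 at -0.11. The 13 GABAergic interneuron markers had a median of 0.07, with 6 inside 1.2-fold and 11 inside 1.5-fold. Sst, the somatostatin gene, had 121 to 174 CPM in WT and 133 to 177 CPM in Msh3-/- mice (0.10, 95% interval -0.03 to 0.23), and Nos1, the neuronal nitric oxide synthase gene, was at -0.09. Pvalb, the marker of fast-spiking interneurons, varied from 20.4 to 53.6 CPM in WT and from 19.6 to 47.3 CPM in Msh3-/- mice, and its interval of -0.47 to 0.43 was wide. Vip, under 5 CPM in every mouse, bounded the list worst, as changes up to 2.67-fold were not excluded.

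Glial markers were near WT levels as well. The 13 astrocyte markers had a median of 0.01, with 12 inside 1.2-fold and 13 inside 1.5-fold. Aqp4, the water channel of astrocyte endfeet, had 81.3 to 98.1 CPM in WT and 79.9 to 109 CPM in Msh3-/- mice (0.02), the glutamate transporter Slc1a2 was at -0.06 and glutamine synthetase, Glul, at -0.01. The 14 oligodendrocyte markers had a median of -0.01, with 11 inside 1.2-fold and all inside 1.5-fold. Of the myelin genes Mbp was at 0.04 and Mog, with 77.7 to 101 CPM in WT and 71.6 to 110 CPM in Msh3-/- mice, at -0.02. The 7 precursor markers had a median of 0.01, with 6 inside 1.2-fold, and Pdgfra, the growth factor receptor that marks these cells, was at 0.02. The 14 microglial markers had a median of 0.02, with 12 inside 1.2-fold and 14 inside 1.5-fold. Cx3cr1, the fractalkine receptor, had 58.6 to 72.9 CPM in WT and 54.3 to 65.2 CPM in Msh3-/- mice (-0.08, edgeR adjusted p = 0.926), Csf1r was at 0.06 and Tyrobp, a signalling adaptor, at 0.14.

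Endothelial markers were the cell class with the lowest median, -0.10 over 9 genes, of which 7 lay below 0, 6 inside 1.2-fold and 9 inside 1.5-fold. That median was -0.06 without Msh3-/- F3, and it was -0.02 in males and -0.17 in females. Kdr, the receptor for VEGF, had 13.7 to 18.3 CPM in WT and 10.3 to 16.7 CPM in Msh3-/- mice, medians 16.3 and 13.0. The groups overlapped. Its log2 fold change of -0.31 (95% interval -0.47 to -0.14) did not pass (edgeR adjusted p = 0.662). Flt1, another VEGF receptor, was at -0.16, the transporter Slco1a4 at -0.10 and Cldn5, of the tight junctions of the blood-brain barrier, at -0.11 with an interval of -0.38 to 0.17. The mean of the list ran from -0.09 to 0.08 in WT and from -0.29 to 0.10 in Msh3-/- mice, and it lay under the WT range in 4 Msh3-/- mice, F2, F3, F4 and M4. The 8 markers of pericytes and smooth muscle had a median of -0.02, with 5 inside 1.2-fold and 8 inside 1.5-fold, and Rgs5 was at -0.08, Vtn at 0.00 and Abcc9 at -0.16.

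Genes of tissue that borders the striatum varied widely between mice of both groups. The summed level of 6 choroid plexus genes ran from 32.8 to 1603 CPM in WT and from 38.2 to 1860 CPM in Msh3-/- mice, with medians of 137 and 175. Ttr, transthyretin, was the most abundant, and changes up to 6.52-fold in it were not excluded. The summed level of 10 cortical excitatory neuron genes ran from 179.6 to 449 CPM in WT and from 175 to 619 CPM in Msh3-/- mice, and Slc17a7, the vesicular glutamate transporter of cortical neurons, had a log2 fold change of 0.31 (95% interval -0.67 to 1.29). Without Msh3-/- F1 the value of Slc17a7 was 0.07. The median was 0.39 for choroid plexus, or -0.19 without Msh3-/- F4, and 0.24 for cortex, or 0.05 without Msh3-/- F1. It was -0.05 for 6 ependymal genes, 0.02 for 7 genes of meningeal fibroblasts, 0.09 for 6 genes of thalamus and septum and -0.04 for 5 genes of red blood cells. Each of these 4 medians changed sign when 1 mouse was left out, with ranges of -0.15 to 0.02, -0.02 to 0.10, -0.03 to 0.17 and -0.15 to 0.04 in the same order. Over these 6 lists 40 genes were tested and edgeR called none, with none at an unadjusted p under 0.05, but only 5 lay inside 1.2-fold and 18 inside 1.5-fold. Their part in the values of other genes was not tested.

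Pathways were described from 17 lists with 375 different genes, of which 368 were tested. Msh3 was the only member called, and 23 of the 368 had an unadjusted p under 0.05, against 5.09% of all tested genes. Inside 1.2-fold lay 281 (76.4%) and inside 1.5-fold 339 (92.1%), against 62.9% and 86.9% of all tested genes. In mismatch repair the other components were near WT levels. Msh6 had 14.2 to 17.8 CPM in WT and 15.3 to 18.1 CPM in Msh3-/- mice, medians 15.9 and 16.7. The groups overlapped, and the log2 fold change was 0.04 (95% interval -0.07 to 0.16). A rise of Msh6 beyond 1.12-fold lay outside its interval. Per length Msh3, at 16.8 TPM, stood above Msh6, at 8.69 TPM, in WT mice. Besides Msh3, 19 of the other 22 genes of the list lay inside 1.2-fold and 21 inside 1.5-fold. Rpa1, of the complex that coats single-stranded DNA, was at 0.04 and Rfc1, of the clamp loader, at -0.08. The median of the list was 0.01.

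Other DNA repair genes were near WT levels. The 23 genes of base excision and strand break repair had a median of -0.02, with 18 inside 1.2-fold and 23 inside 1.5-fold. Parp1, a sensor of strand breaks, was at -0.02, Trp53bp1 at -0.02 and the DNA glycosylase gene Neil1 at 0.18. The 18 targets of p53, which report DNA damage, had a median of 0.01, with 12 inside 1.2-fold and 16 inside 1.5-fold. Cdkn1a, the cell cycle inhibitor p21, had 8.34 to 12.2 CPM in WT and 11.2 to 14.3 CPM in Msh3-/- mice, medians 11.2 and 12.1. The groups overlapped, and 0.19 (95% interval 0.00 to 0.37) did not pass (edgeR adjusted p = 0.926). Plk2 was at 0.00, Zmat3 at -0.03 and Btg2 at -0.24 with a wide interval of -0.77 to 0.28.

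**Figure D3:**
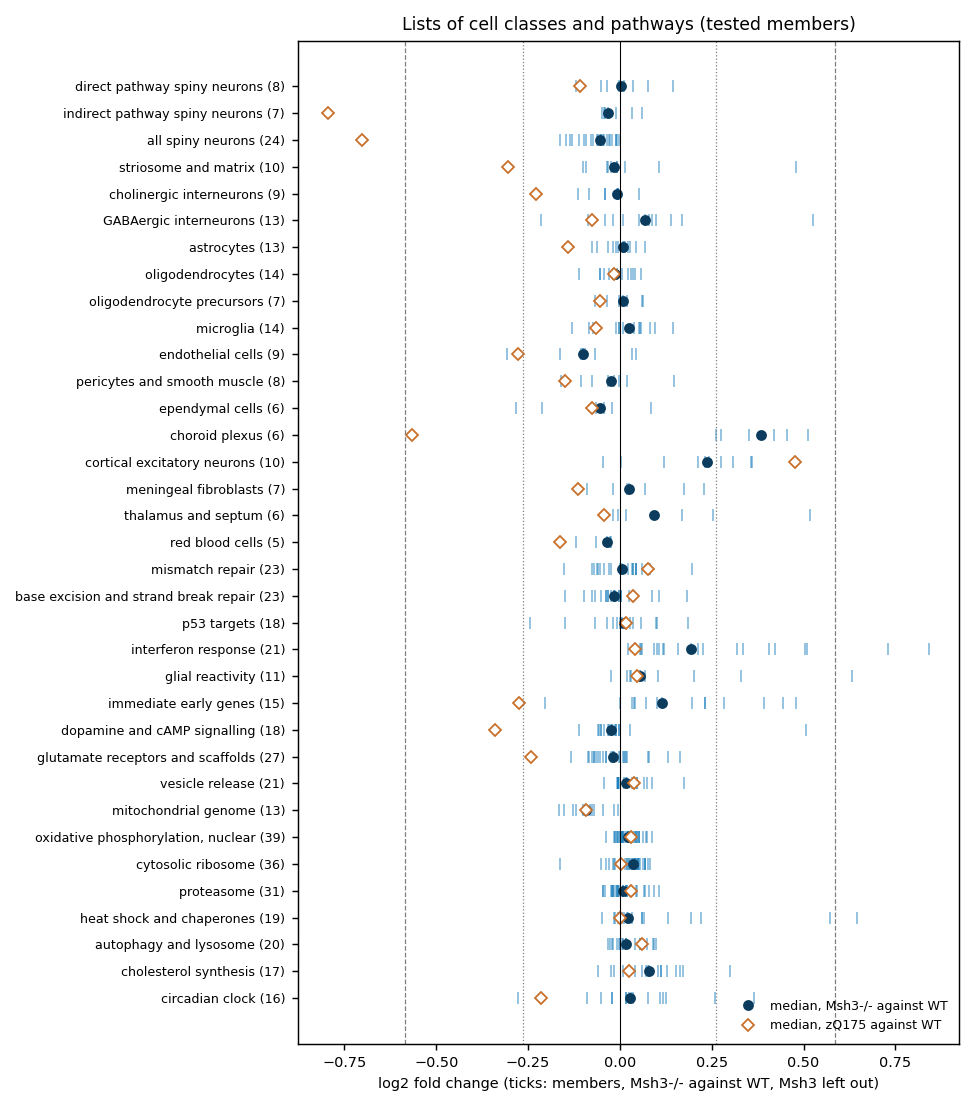
Log2 fold change of each list, with the number of tested members in parentheses, as ticks for members and filled circles for the median in Msh3-/- against WT mice, and open diamonds for the median in zQ175 against WT mice, which share the WT mice. Dotted and dashed lines stand at 1.2-fold and 1.5-fold. The filled circle for all spiny neurons lies at -0.05 and the open diamond at -0.70, and the filled circles farthest from 0 are choroid plexus at 0.39, cortex at 0.24 and interferon response at 0.19.

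Interferon response genes had the highest median of the 17 pathways, and 3 of the Msh3-/- mice had list means above the WT range. All 21 tested genes had a log2 fold change above 0, with a median of 0.19. None was called by edgeR, and 2 had an unadjusted p under 0.05, against 5.09% of all tested genes. Inside 1.2-fold lay 1 gene and inside 1.5-fold 13. Usp18, a protease that limits interferon signalling, was highest at 0.84 (95% interval 0.13 to 1.56, edgeR adjusted p = 0.926), with 0.346 to 1.29 CPM in WT and 0.583 to 2.79 CPM in Msh3-/- mice. The MHC class I genes B2m (0.12) and H2-D1 (0.16) were more abundant and closer to WT. The mean of the list, relative to the WT mean, ran from -0.27 to 0.25 in WT mice. It was 0.78 in Msh3-/- F3, 0.72 in F2 and 0.48 in M1, and from -0.25 to 0.07 in the other 5 Msh3-/- mice, inside the WT range. The medians of the groups, -0.01 and 0.01, were thus alike, and without Msh3-/- F2 the median log2 fold change of the list was 0.10. Among mice with the zQ175 allele the mean was 0.59 in zQ175 F2, which carries Msh3. It was 0.55 in zQ175:Msh3-/- F2 and 0.57 in zQ175:Msh3-/- M4, which also lack Msh3. Whether such high values go with Msh3 loss was not tested. Mb21d1 of the list was not tested under that symbol. The 11 tested genes of glial reactivity had a median of 0.05, with 3 inside 1.2-fold and 8 inside 1.5-fold. Apoe was at 0.05 and Gfap at 0.07, while Clec7a, a receptor of reactive microglia, under 2 CPM in every mouse, was at 0.63 (95% interval 0.00 to 1.26).

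**Figure D4:**
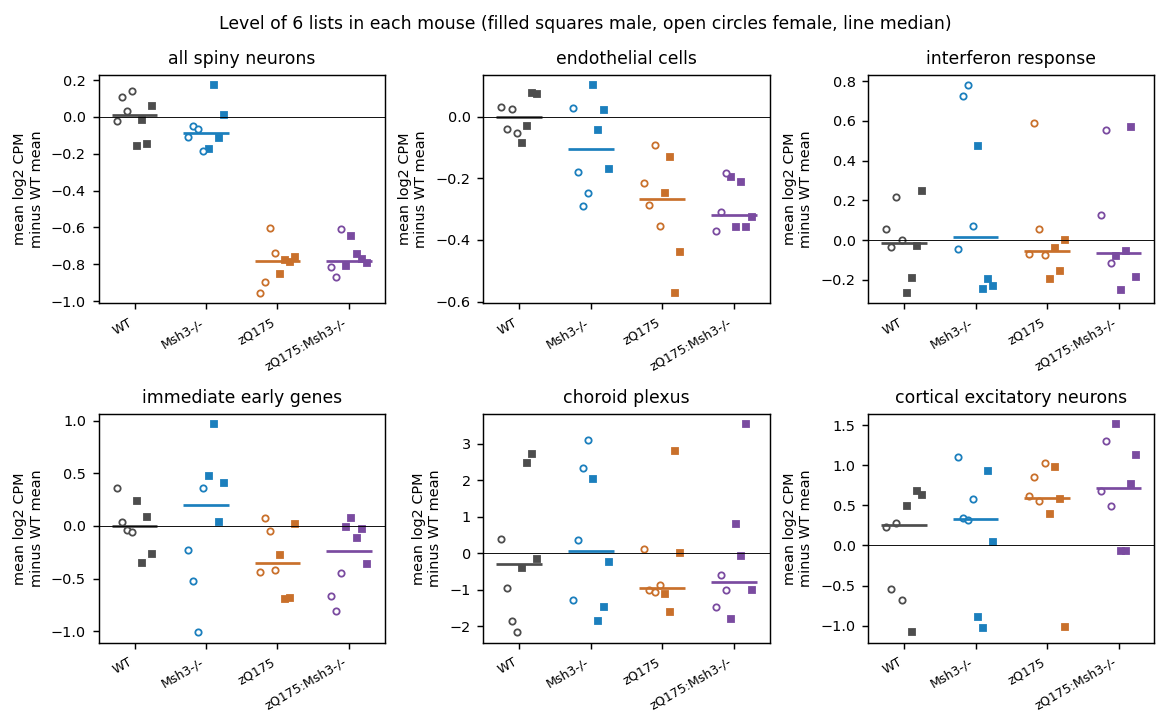
Mean log2 CPM of 6 lists in each mouse, relative to the mean of the WT mice, with 8 mice per genotype, filled squares for males, open circles for females and a line at the median. The interferon response is at 0.78, 0.72 and 0.48 in 3 Msh3-/- mice and within the WT range in the other 5, and the choroid plexus and cortical lists vary widely in every genotype.

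Signalling and synaptic genes had narrow bounds. Of 18 genes of dopamine and cAMP signalling, with a median of -0.02, 17 lay inside 1.2-fold, and the exception was the scarce dopamine receptor gene Drd3 at 0.51 (95% interval 0.04 to 0.97, edgeR adjusted p = 0.926). Of 27 genes of glutamate receptors and scaffolds, with a median of -0.02, 23 lay inside 1.2-fold and all inside 1.5-fold, with Camk2a at 0.01, Camk2b at 0.02 and the receptor gene Grik1 at 0.16. Of 21 genes of vesicle release, with a median of 0.02, 19 lay inside 1.2-fold, with Snap25 at -0.01, Cplx2 at 0.00 and Stx1a, at 0.17, not inside 1.5-fold.

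Genes of housekeeping machinery had narrow intervals. All 39 nuclear genes of oxidative phosphorylation lay inside 1.2-fold, with a median of 0.02, and no interval among them reached beyond 1.13-fold. Atp5b was at 0.02, Atp5a1 at 0.03 and Ndufs7 at 0.09. All 31 proteasome genes lay inside 1.2-fold as well, with a median of 0.01, and Psmd2 was at 0.04, Psmc1 at -0.02 and Psmb5 at 0.11. Of 36 genes of the cytosolic ribosome, with a median of 0.03, 35 lay inside 1.2-fold, and the exception was Rpl27 at -0.16, while Rpl3 and Rplp1 were at 0.04. Of 20 genes of autophagy and lysosome, with a median of 0.02, 19 lay inside 1.2-fold, with Ctsb at -0.01, Gabarapl1 at 0.01 and Grn, progranulin, at 0.10.

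The 13 genes of the mitochondrial genome all had values below 0, with a median of -0.09, 9 of them inside 1.2-fold and 13 inside 1.5-fold. Their mean was -0.40 in Msh3-/- M1, the lowest of the 16 mice, and between -0.13 and 0.01 in the other 7 Msh3-/- mice, inside or close to the WT range of -0.12 to 0.19. Without Msh3-/- M1 the median was -0.05. mt-Co1 was at -0.02, or 0.01 without that mouse, mt-Cytb at -0.05 and mt-Atp6 at -0.17. The 19 heat shock and chaperone genes had a median of 0.02, with 12 inside 1.2-fold and 17 inside 1.5-fold. Hspa8 was at 0.02 and Hsp90ab1 at 0.03. Hspa1b, an inducible HSP70 gene, was at 0.65, changes up to 2.83-fold were not excluded, and its highest value was 39.7 CPM in Msh3-/- M4, against at most 12.5 CPM in WT mice. Without Msh3-/- M4 the log2 fold change of Hspa1b was 0.02. The mean of that list was 0.54 in the same mouse and at most 0.22 in the other 7.

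Of 17 cholesterol synthesis genes none was called by edgeR or DESeq2, and the median was 0.08. Values above 0 numbered 14, against 50% of all tested genes, and 5 were higher at an unadjusted p under 0.05, against 2.43% of all tested genes. The list itself was not tested. Hmgcs1, which encodes a synthase early in the pathway, was at 0.08 (95% interval -0.04 to 0.19), and 13 of the 17 lay inside 1.2-fold and all inside 1.5-fold. The 16 circadian clock genes had a median of 0.03, with 9 inside 1.2-fold and 14 inside 1.5-fold. The clock output genes Tef and Hlf were both at 0.02, and Per1, a repressor of the clock, at 0.36 (95% interval 0.06 to 0.67, edgeR adjusted p = 0.926).

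Immediate early genes, which follow neuronal activity, spread more in Msh3-/- than in WT mice. The 15 genes had a median of 0.12 with 14 above 0, none called by edgeR and none at an unadjusted p under 0.05, and only 2 lay inside 1.2-fold and 7 inside 1.5-fold. Egr1 had 254 to 434 CPM in WT and 177 to 565 CPM in Msh3-/- mice, medians 317 and 386, and Egr3 was at 0.04. The mean of the list ran from -0.35 to 0.36 in WT mice and from -1.01 in Msh3-/- F3 to 0.96 in Msh3-/- M2, so that Msh3-/- mice lay on both sides of the WT range, a difference in spread that was not tested. Without Msh3-/- M2 the median log2 fold change of the list was -0.02.

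The zQ175 allele gives a scale for these values. In zQ175 against WT mice, a comparison that shares the WT mice with the present one, 1925 genes (11.6%) were called by edgeR, 781 higher and 1144 lower. For those 1925 genes the median size of the log2 fold change was 0.43 in zQ175 and 0.07 in Msh3-/- mice, each against WT. Part of this gap follows from the choice of genes. They were selected by a fold of at least 1.2 in zQ175 mice, and no such selection acted on the Msh3-/- values. In Msh3-/- mice 1023 of the 1925 genes (53.1%) lay inside 1.2-fold and 1757 (91.3%) inside 1.5-fold. Of all tested genes 62.9% and 86.9% did, with a median size of 0.05. All 24 spiny neuron genes were called in zQ175 mice, with a median of -0.70 against -0.05 in Msh3-/- mice. Drd1 was at -0.81, Drd2 at -0.79 and Penk at -1.32 in zQ175 mice. Each of these values lay outside the Msh3-/- interval of the same gene. Of the 136 cell class genes 57 were called in zQ175 mice, and of the 368 pathway genes 49, against 11.6% of all tested genes.

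Whether the Msh3 effect differed with the Htt genotype was tested by the interaction. No gene passed in edgeR among 16610 (0%), with 737 (4.44%) at an unadjusted p under 0.05, and DESeq2 also called 0, with 671. Msh3 itself was at -1.06 without and -0.92 with the zQ175 allele. The zQ175:Msh3-/- mice were 5 males and 3 females, against 4 of each among zQ175 mice. With sex as a term the interaction likewise gave 0 genes in edgeR. The medians that follow come from the model without sex. Median effects of Msh3 loss within zQ175 mice were 0.03 for all spiny neuron genes, -0.01 for endothelial genes, 0.09 for interferon response genes and 0.01 for immediate early genes, against -0.05, -0.10, 0.19 and 0.12 without the allele. Some other medians were nearer to those without the allele or larger, at 0.08 in each case for cholesterol synthesis, -0.06 against -0.09 for the mitochondrial genome, 0.21 against 0.24 for cortex and 0.65 against 0.39 for choroid plexus. Others had the opposite sign, such as 0.19 against -0.05 for ependymal genes and -0.13 against 0.09 for thalamus and septum. Microglial genes (-0.06 against 0.02) and circadian clock genes (-0.06 against 0.03) were among these.

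Several list medians differed in sign between the sexes, and the tools disagreed on whether single genes differed. The interaction of genotype with sex gave 0 genes in edgeR (0% of 16726, smallest adjusted p = 0.085) but 2038 (12.2%) at an unadjusted p under 0.05, and 40 genes (0.239%) in DESeq2, with 1844 unadjusted. Among those 40 the edgeR adjusted p ran from 0.085 to 0.233. Of them 33 were higher than WT in Msh3-/- males and lower in Msh3-/- females. Males alone gave 3 genes (0.0179%) and 1093 (6.52%) at an unadjusted p under 0.05, and females alone gave 1 gene (0.00599%) and 1763 (10.6%). The 3 genes in males were Msh3, Phlda1 (0.46, adjusted p = 0.0293 by edgeR) and Slc25a25 (0.42, adjusted p = 0.0387 by edgeR). In females Phlda1 was at -0.06 and Slc25a25 at -0.01. These genes, and the next ones, were named after their values were seen.

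Fosb, an immediate early gene and the only 1 of that list among the 40, was at 0.50 in males and -0.36 in females, with a DESeq2 adjusted p of 0.0273 for the interaction, and Srf, the serum response factor, at 0.26 and -0.19. Klf5 was at 0.47 and -0.26. On the other side were Nr2f2, a nuclear receptor gene, at -0.72 and 0.82, and Krt8, a keratin of epithelia, at -1.37 and 2.47. The median over the immediate early list was 0.58 in males and -0.36 in females. Its mean was 0.47, 0.96, 0.03 and 0.40 in Msh3-/- males M1 to M4 and 0.24, -0.35, 0.08 and -0.26 in the WT males. It was -0.23, -0.52, -1.01 and 0.36 in Msh3-/- females F1 to F4 and 0.36, 0.03, -0.04 and -0.06 in the WT females. The ranges overlapped in each sex.

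Spiny neuron lists had medians of opposite sign in the sexes, differences not tested as lists. The median was 0.12 in males and -0.06 in females for direct pathway genes, 0.09 and -0.11 for indirect pathway genes, 0.07 and -0.16 for all spiny neurons, and 0.07 and -0.12 for dopamine and cAMP signalling. Drd1 was at 0.17 in males and -0.17 in females (edgeR adjusted p = 0.25 for the interaction), and Drd2 at 0.11 and -0.18 (0.319). Oligodendrocyte precursor genes were at 0.09 and 0.00, glial reactivity genes at 0.06 and 0.19, cholesterol synthesis genes at 0.02 and 0.16, autophagy and lysosome genes at -0.02 and 0.06, and interferon response genes at 0.06 and 0.28.

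Lists of bordering tissue differed among themselves. Choroid plexus, cortex, and thalamus and septum had the opposite signs to the spiny neuron lists, with -0.15 in males and 0.20 in females for thalamus and septum. Ependymal genes (0.04 and -0.13) and red blood cell genes (0.12 and -0.25) had the same signs as the spiny neuron lists, and genes of meningeal fibroblasts (0.07 and 0.04) were above 0 in each sex. The median of the 6 choroid plexus genes was -1.43 in males and 2.97 in females, and that of the 10 cortical genes -0.41 and 0.89. The summed choroid plexus level was 916, 38.2, 59.7 and 137 CPM in Msh3-/- males M1 to M4, and 130, 1315, 1603 and 144 CPM in the WT males. It was 68.6, 213, 1031 and 1860 CPM in Msh3-/- females F1 to F4, and 212, 78.0, 32.8 and 33.9 CPM in the WT females. The 5 highest were thus WT M2 and M3 and Msh3-/- F3, F4 and M1, of which Msh3-/- M1 is a male and lies against the sign of the male median. The summed cortical level was 184, 175, 536 and 308 CPM in the Msh3-/- males and 426, 179.6, 449 and 420 CPM in the WT males, and 619, 353, 350 and 397 CPM in the Msh3-/- females and 344, 212, 323 and 189 CPM in the WT females. Every Msh3-/- female was above every WT female in the cortical level. Ttr and Slc17a7 were the most abundant genes of these lists, and no gene of either was at 0 in all mice. The part of bordering tissue in the differences between the sexes was not tested.

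**Figure D5:**
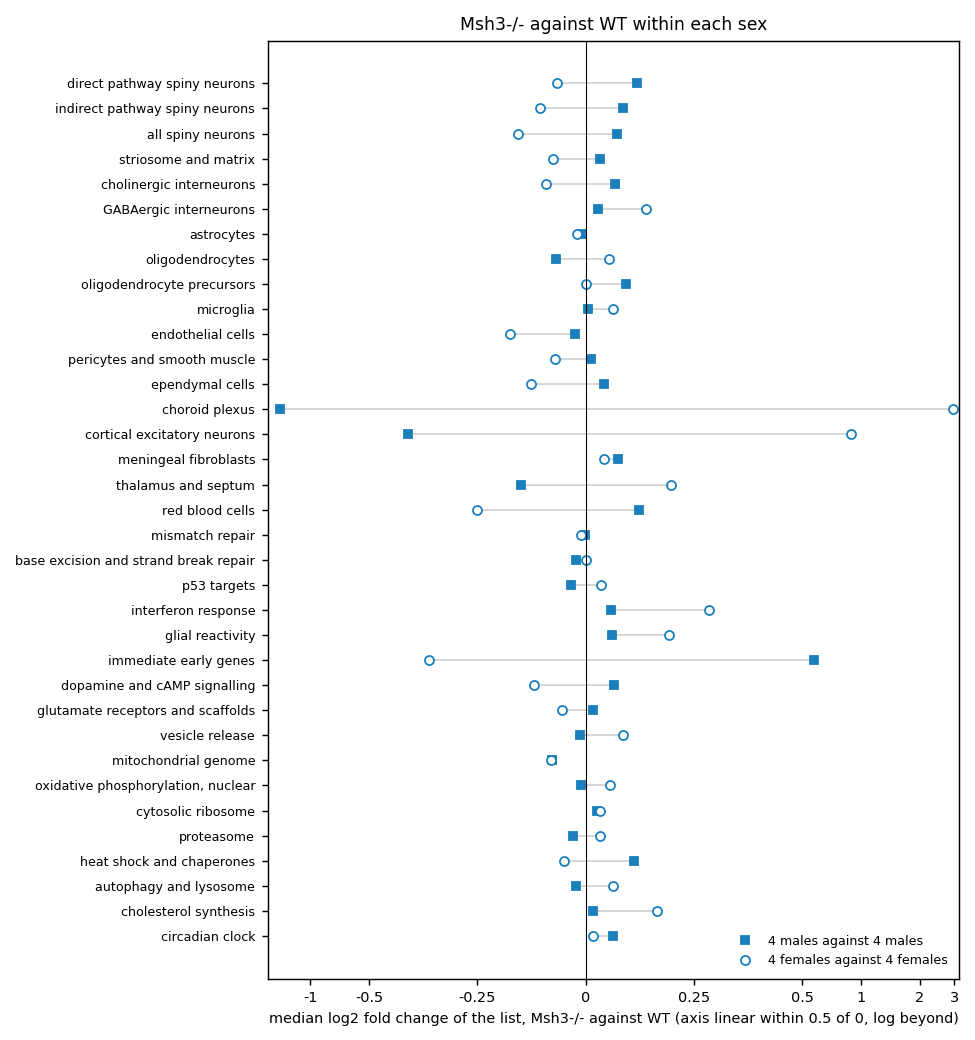
Median log2 fold change of each list in Msh3-/- against WT mice, for 4 males against 4 males (filled squares) and 4 females against 4 females (open circles), on an axis that is linear within 0.5 of 0 and logarithmic beyond. Immediate early genes lie at 0.58 in males and -0.36 in females, choroid plexus genes at -1.43 and 2.97, and most other lists within 0.25 of 0 in each sex.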

How the data were processed

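Gene-level counts deposited by the authors (poly(A) RNA, paired-end reads, GRCm38.p6, 1 column per mouse) were analysed for 32 striata. The aligner, counting tool and strand setting are not given in the sources used here. The table of TPM values was deposited by the authors as FPKM, but each column sums to 1000000, so it was treated as TPM. All 4 genotypes were fitted in 1 model in edgeR 4.0.16 (TMM, filterByExpr by group, robust quasi-likelihood test), and called genes had a Benjamini-Hochberg adjusted p below 0.05 with a fold of 1.2 or more. Intervals are the unshrunken log2 fold change plus or minus the t quantile times its standard error, and simultaneous intervals use a Bonferroni quantile over all tested genes. Log2 CPM used a prior count of 2. The interaction with sex used WT and Msh3-/- mice only. The steps were tested on simulated data.

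Alternatives were DESeq2 size factors, DESeq2 1.42.0, no filter on low counts, at least 10 counts in every mouse, only WT and Msh3-/- mice, sex as a term, males or females alone, a replicate block from the labels' replicate numbers, limma 3.58.1 on log2 TPM plus 0.1 or 1 with and without a filter, and each mouse left out in turn. R 4.3.3, Python 3.11.15, numpy 2.4.6, pandas 2.3.3, matplotlib 3.10.9 and GENCODE M21 were used.

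The members and lists were chosen with earlier results of these data known. Genes were named by rule: Msh3, every called gene, the 6 with the smallest unadjusted p in each direction, tested genes within 2 Mb of Msh3, in each list the 2 most abundant members and the 1 with the largest log2 fold change, and a set of 14 chosen genes that included Drd1, Drd2, Chat, Pvalb, Sst, Aqp4, Mog, Cx3cr1, Cldn5, Msh6 and Cdkn1a. Some genes that the rule names are not reported here. Others are said to be chosen after their values were seen.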

Additional observations from a re-analysis of the deposited data

Results flagged for a closer look

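In 368 sets of 8 mice (named genes, list means and library measures in WT or Msh3-/- mice), 17 had a mouse whose gap to the nearest other, divided by the range, exceeded Dixon's critical value for 8. Chance alone would give about 1 in 20, or 18.4 of 368. The 17 were split unevenly, with 13 in Msh3-/- and 4 in WT mice, and many share a mouse or genes, so that they are not independent. The split was not tested.

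In Msh3-/- M1 the lowest values of the group were the mitochondrial genome list mean (ratio 0.673), mt-Atp6 (0.621), mt-Cytb (0.573), mt-Co1 (0.543), the share of the 10 most abundant genes (0.666) and Gm47155 (0.602), while its mean of the cholinergic interneuron list was the highest (0.597). These mitochondrial measures share genes and the same library. In Msh3-/- M2, Adora2a (0.671) and Plk2 (0.613) were highest and Pvalb (0.536) lowest. The lowest values of the group were the astrocyte list mean in Msh3-/- F3 (0.581), Ssbp2 in Msh3-/- M4 (0.536) and Rplp1 in Msh3-/- F4 (0.540). In WT mice Glul was highest in M4 (0.535), Mog highest in F3 (0.562), Mbp lowest in F1 (0.530) and Gpr17 lowest in M3 (0.559).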

How the results depend on the processing

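Msh3 alone was called under each alternative and with each of the 16 mice left out in turn, except in males alone, where the count was 3. The log2 fold change of Msh3 ran from -1.07 to -0.70 over 12 alternatives, nearest to 0 in TPM values, and from -1.09 to -1.03 with a mouse left out. Among 4080 values of the 146 other named genes none passed both thresholds, and 43 moved by more than 1 SD between mice. The percent of tested genes with a 95% interval inside 1.2-fold was 31.97% with no filter on low counts, 34.6% in unfiltered TPM values and 18.8% with simultaneous intervals, and the percent of tested genes with a 95% interval inside 1.5-fold was 44.3% with no filter. More scarce genes, or wider intervals, enter there by construction. With a mouse left out the shares were 60.7% to 62.0% and 85.2% to 86.0%.

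Of 420 list medians under alternatives 12 moved by more than 1 SD, all within a single sex. In males alone the median was 0.118 for direct pathway, 0.087 for indirect pathway and 0.072 for all spiny neuron genes, 0.092 for oligodendrocyte precursors, 0.066 for dopamine and cAMP signalling and -0.022 for autophagy and lysosome. In females alone it was 2.97 for choroid plexus, 0.19 for glial reactivity, -0.36 for immediate early genes, -0.118 for dopamine and cAMP signalling, 0.064 for autophagy and lysosome and 0.16 for cholesterol synthesis. The cause was not tested. The interaction with sex gave 40 genes in DESeq2 and 0 in edgeR, where 2038 had an unadjusted p under 0.05, and the cause was not tested.

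None of the 560 list medians with a mouse left out moved by more than 1 SD. All spiny neurons ran from -0.09 (without Msh3-/- M2) to -0.04, endothelial cells from -0.12 to -0.06 and interferon response from 0.10 (without Msh3-/- F2) to 0.25. Choroid plexus ran from -0.19 (without Msh3-/- F4) to 0.997, cortical genes from 0.05 (without Msh3-/- F1) to 0.38, cholinergic interneurons from -0.10 (without Msh3-/- M1) to 0.05 (without WT M2), the mitochondrial genome from -0.11 to -0.05 (without Msh3-/- M1) and immediate early genes from -0.02 (without Msh3-/- M2) to 0.22. With replicate numbers as a block 1 gene was called, with 865 at an unadjusted p under 0.05. No pairing by number was seen in the values. The correlations of the 8 pairs ran from -0.05 to 0.14, and 1 WT mouse correlated best with its own number. Low correlations cannot show that the numbers carry no pairing.

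With 8 mice per group, changes of 1.5-fold, averaged over the sexes, were not excluded for 2179 genes, of which 1349 had a mean under 1 CPM. Whole-gene counts do not show which exons remain in Msh3 transcripts.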
